A study of Mus musculus with 8 samples.

Results

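Kinesins are motor proteins that couple ATP hydrolysis to movement along microtubules or, in some families, to the shortening of microtubule ends. Mitotic kinesins build the spindle, move chromosomes and help to separate the daughter cells, whereas transport kinesins carry vesicles, organelles and mRNA. Early mouse embryos divide without centrioles, so their spindles are assembled by motors and microtubule-associated proteins around the chromosomes. Kinesin genes were taken as every probe set whose single platform gene symbol is Kif or Kifc followed by a digit. This gave 41 genes, read by 104 probe sets, of 18194 genes with a single-symbol probe set on the array. Each gene was represented by the probe set brightest on average (mean log2 signal) over all 8 arrays, and 30 genes were bright enough to be tested. A probe set shared with another gene symbol names Kif27 too and was left out.

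Mouse embryos at the 2-cell stage labelled Brg1 mutant (4 samples) were compared with wild type embryos of the same stage (4 samples). Brg1 is the older name of Smarca4, the ATPase of BAF chromatin remodelling complexes, and the series title ties it to its maternal supply and to activation of the zygotic genome. Every sample in both groups was total RNA of 20 whole embryos read on 1 Affymetrix array. Strain, age, allele, Cre driver and the deleted part of the gene are not given in the sources used here. A lower signal from fewer embryos and one from less RNA per embryo cannot be told apart in such pools, and the labels do not tie replicates to separate collections, so that p-values reflect sample-to-sample spread only, which may be technical. Precision is limited by the number of arrays.

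Mutant arrays differed among themselves. Markers of granulosa and cumulus cells, which surround the oocyte, were read for 15 of 17 listed genes, none at 0. Their summed signal was 16594 to 20330 in mutant replicates 3 and 4 and 1058 to 1401 in mutant replicates 1 and 2, against 1116 to 1757 in wild type. The brightest by mean log2 signal were Nr5a2, a nuclear receptor, and Inha, an inhibin subunit. Nr5a2 read 956.5 and 1000.1 in mutant replicates 3 and 4, within its wild type range of 542.4 to 1029.3, whereas Inha read 2619 and 2364.2 there, against 61.2 to 115.2 in wild type. Most of the sum came from Hsd3b1, a steroid-making enzyme, with 8835.3 and 6889 in mutant replicates 3 and 4, against 7 to 32.7 in wild type, followed by Vim, Inha and Inhba. Cyp11a1 and Amh in these replicates were within their wild type range and Ptx3 below it. Inhba and Vim were below the background bound in all 4 wild type samples. Oocyte and early embryo markers (11 of 13 read, none at 0) summed to 46260 and 49927 in mutant replicates 1 and 2 and to 22321 and 19136 in replicates 3 and 4, against 18574 to 26280 in wild type. Their brightest members, Oosp1 and Dppa3, both oocyte transcripts, read at least 19965 and 9467 in mutant replicates 1 and 2 and at most 8216 and 7204 in every other sample. Gdf9, the only tested member that passed, was above all wild type samples in every mutant (log2 change 1.26, limma adjusted p = 0.0343). It passed in both mutant pairs (limma adjusted p = 0.0185 and 0.0115). Nlrp5 and Padi6 were likewise higher in every mutant without passing (limma adjusted p = 0.0759 and 0.0839). Dppa3, Bmp15 and Zp3 in mutant replicates 3 and 4 were below their wild type range. Oviduct markers (7 of 7 read, none at 0) summed to 1126 to 1973 in the mutants and 971 to 1051 in wild type (exact permutation p = 0.0286, two-sided, the smallest that 4 against 4 allows). Their brightest members, Cdh1 and Epcam, had log2 changes of -0.10 and -0.04 (limma adjusted p = 0.876 and 0.946). The difference in the sum came mainly from the keratins Krt18 and Krt8, with a smaller part from Ovgp1. Ovgp1 read 179.9, 209.5, 360 and 305.2 in mutants, against 86.9 to 221.9 in wild type. It did not pass over all samples (limma adjusted p = 0.158) but rose in mutant replicates 3 and 4 alone (limma adjusted p = 0.0255). Krt18 rose (89.5, 149.7, 415.8 and 372.5 in mutants, against 31.3 to 60.9 in wild type, limma adjusted p = 0.0249), and Krt8 read 86.6, 167.8, 554.6 and 618.7 in mutants, against 88.8 to 94.7 in wild type. Blood and leukocyte markers (6 of 7 read, none at 0) summed to 393 to 887 in the mutants and 322 to 395 in wild type (exact permutation p = 0.0571, two-sided). Cd52, with 360.4 and 453.1 in mutant replicates 3 and 4 against 19.7 to 48.2 in wild type, made up most of the difference. The brightest members were Laptm5, with 156 and 129.5 in mutant replicates 3 and 4 and 169.3 and 164.5 in mutant replicates 1 and 2, against 69.2 to 134.6 in wild type, and Lyz2, with 188.8 and 192 in mutant replicates 3 and 4, against 83.8 to 125.9 in wild type. Hsd3b1, Vim, Inhba, Cyp11a1, Amh, Ptx3, Gdf9, Nlrp5, Padi6, Bmp15, Zp3, Ovgp1, Krt18, Krt8 and Cd52 are named after their values were seen. Signal at the 3 prime end over that at the 5 prime end ranged up to 15.05 for actin and 7.33 for Gapdh in the mutants, against at least 16.3 and 8.58 in wild type (exact permutation p = 0.0286 for each, two-sided). Over the 10 array measures compared, these p-values and that of the oviduct markers became 0.0952 after Benjamini-Hochberg adjustment, and none passed. As 0.0286 is the smallest p possible here, a single measure could not pass this adjustment. Not passing therefore does not show that the groups were alike. Both ratios were lower in every mutant sample than in any wild type sample. Hybridization spike-in controls summed to 153075 and 107124 in mutant replicates 1 and 2 and to 39449 and 22704 in replicates 3 and 4, against 23828 to 39260 in wild type (exact permutation p = 0.257, two-sided). The part of these differences in the kinesin results was not tested, and each result is given for the mutant pairs apart as well. The brighter Smarca4 probe set read 387.5, 200.9, 273 and 291.3 in mutant and 796, 632.1, 612.1 and 660.6 in wild type samples (log2 change -1.26, limma adjusted p = 0.0211). Its other probe set did not pass (log2 change 0.04, limma adjusted p = 0.963), and where either lies relative to the deletion is not known here.

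Many mitotic kinesin promoters carry the same short element. The cell cycle genes homology region, or CHR, is a 6-base element bound by the DREAM and MuvB complexes, which hold cell division genes silent in resting cells and activate them before mitosis. RefSeq promoters of build GRCm38.p6, spanning 250 bases before to 50 bases after each start, were found for 33 of the 41 genes. The letters TTTGAA were searched on both strands. A match was present for 11 of 14 mitotic kinesins, 1 of 10 transport kinesins and 2 of 9 others, against 17.9% of all 32851 promoters of this length. The mitotic kinesins with no match were Kif18a, Kif2a and Kif2b, and the transport kinesin with one was Kif1a. Farther matches are not printed. They lay 228 bases before the start in Kif14 and 103 bases before it in Kif2c. Kif15 and Kif22 also held a second match, 234 and 215 bases before the start. Only matches near the start site are printed below, each 5′ to 3′ on the gene's strand, with the CHR in capitals (TTCAAA where it is on the opposite strand).
Kif11, chr19:37376348-37376383 (+): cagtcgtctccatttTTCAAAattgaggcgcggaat
Kif15, chr9:122951047-122951082 (+): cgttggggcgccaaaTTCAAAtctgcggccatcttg
Kif22, chr7:127042417-127042452 (-): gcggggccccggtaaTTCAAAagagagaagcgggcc
Kif18b, chr11:102925101-102925136 (-): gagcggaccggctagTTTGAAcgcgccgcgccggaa
Kif23, chr9:61946777-61946812 (-): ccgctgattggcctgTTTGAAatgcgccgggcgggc
Kif20b, chr19:34922350-34922385 (+): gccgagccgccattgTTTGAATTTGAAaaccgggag
Kif4, chrX:100626069-100626104 (+): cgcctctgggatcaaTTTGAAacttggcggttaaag
Kifc1, chr17:33890612-33890647 (-): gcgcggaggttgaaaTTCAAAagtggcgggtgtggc
Kifc5b, chr17:26917105-26917140 (+): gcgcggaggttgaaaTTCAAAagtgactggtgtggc

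In Kif11 and Kif15 the printed match began 19 bases before the start, in Kif22 17 bases before it, and in Kif23, Kif18b and Kifc1 at transcribed bases 3, 4 and 2. Kif20b held it in tandem. Kifc1 and Kifc5b share nearly the same window, and their probe sets may read each other's RNA. The other letters searched were CCAAT (9 of 14 mitotic and 3 of 10 transport kinesins, 37.4% of all promoters), the E2F site TTTNGCGC (2 of 14 and 0 of 10, 1.38% of all) and the GC box GGGCGG (7 of 14 and 8 of 10, 35.7% of all), each on both strands. A match describes letters and not a bound site, and the lack of one says nothing about a factor.

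The promoters of the 2 mitotic kinesins that fell in the mutants differ in these letters. The Kif11 promoter holds a CHR, a CCAAT box 45 bases before the start and a GC box, all in capitals (ATTGG is CCAAT on the opposite strand), and that of Kif18a holds an E2F site (GCGCCAAA, on the opposite strand) and 2 GC boxes (CCGCCC, likewise) but no CHR. No match overlapped another in either promoter.
Kif11, chr19:37376132-37376431 (+): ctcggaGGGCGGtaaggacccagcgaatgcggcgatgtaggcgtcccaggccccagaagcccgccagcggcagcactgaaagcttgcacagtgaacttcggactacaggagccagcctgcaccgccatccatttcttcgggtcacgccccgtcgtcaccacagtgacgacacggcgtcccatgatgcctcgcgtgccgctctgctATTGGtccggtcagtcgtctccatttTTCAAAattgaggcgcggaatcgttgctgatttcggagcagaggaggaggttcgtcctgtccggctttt
Kif18a, chr2:109280488-109280787 (+): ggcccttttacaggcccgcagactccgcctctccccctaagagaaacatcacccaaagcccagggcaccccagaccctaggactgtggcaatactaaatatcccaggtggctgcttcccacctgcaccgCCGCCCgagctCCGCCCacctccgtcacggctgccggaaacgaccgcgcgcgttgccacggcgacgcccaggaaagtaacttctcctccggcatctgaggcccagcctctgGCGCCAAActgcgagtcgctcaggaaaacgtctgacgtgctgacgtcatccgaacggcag

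In the comparison of Brg1 mutant with wild type embryos, 4 of the 30 tested kinesin genes fell and 0 rose, while 26 did not pass a limma adjusted p of 0.05 (of these, 5 had an unadjusted p under 0.05). Among all 11934 tested genes, each read by 1 probe set, 4.03% fell and 3.01% rose, and 6.56% of all tested probe sets passed in either direction. The 4 genes were the mitotic kinesins Kif18a and Kif11 and the transport kinesins Kif13a and Kifc2. Every mutant sample lay below every wild type sample for 7 of the 30 genes and above it for 1, against 10.6% and 8.10% of all tested genes. The median log2 change was -0.71 for 11 mitotic kinesins, -0.11 for 13 transport kinesins and -0.28 for 6 others, and -0.05 over all tested genes. Of the mitotic kinesins 10 had a negative and 1 a positive change, and of the transport kinesins 7 and 6. These class medians are a description, with no test between the classes.

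**Figure D1:**
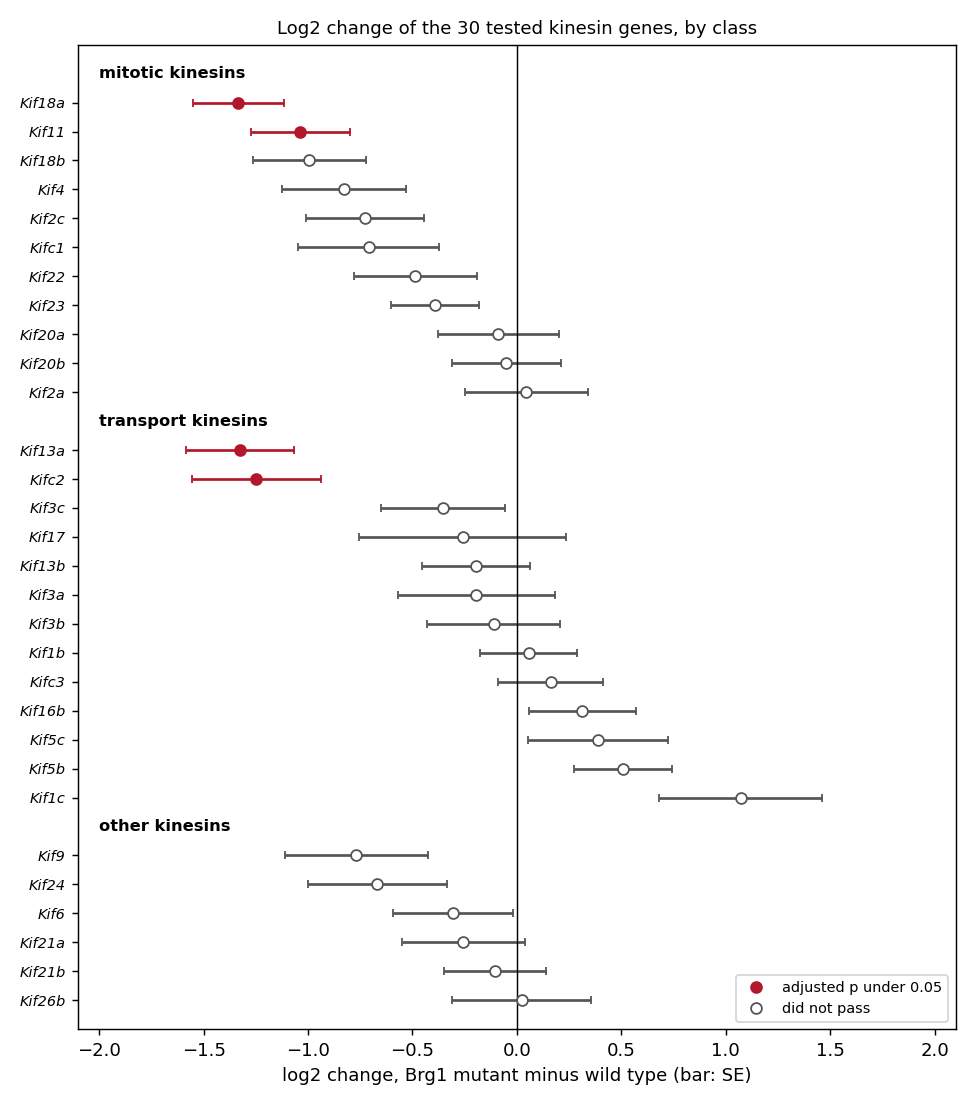
Log2 change (Brg1 mutant minus wild type, horizontal axis) of each tested kinesin gene, grouped by class, with the SE of the fit as bars and filled red points for an adjusted p under 0.05. Changes of mitotic kinesins run from -1.33 to 0.05 and those of transport kinesins from -1.33 to 1.07.

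Kif18a, a kinesin-8 that walks to the plus ends of kinetochore microtubules and damps chromosome movement, had signals of 427, 322.9, 293.7 and 320 in mutant replicates 1 to 4, against 758.4, 792.1, 971.1 and 899.6 in wild type. All 4 mutant pools were well under the lowest wild type pool, and the mutant pairs were close to each other. Kif18a averaged 341 ± 58.9 in mutants and 855 ± 97.9 in wild type (SD, n = 4 each), a 2.52-fold fall (log2 change -1.33, SE 0.218, limma adjusted p = 0.0134). It also passed in mutant replicates 1 and 2 alone (log2 change -1.20, limma adjusted p = 0.0221) and in replicates 3 and 4 alone (log2 change -1.47, limma adjusted p = 0.000317). Its second probe set read 11.9 or less on every array and was not tested.

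Kif11, or Eg5, is the tetrameric kinesin-5 that slides antiparallel microtubules apart and keeps the spindle bipolar. It read 97.9, 102.3, 112 and 117 in mutant samples, against 252.3, 167.4, 239.3 and 229.7 in wild type. Mutant pools fell in a narrow band below all wild type pools. The means were 107 ± 8.75 in mutants and 222 ± 37.7 in wild type (SD, n = 4 each), a 2.05-fold fall (log2 change -1.04, SE 0.235, limma adjusted p = 0.0313). In the pairs the log2 change was -1.13 in mutant replicates 1 and 2 (limma adjusted p = 0.0363) and -0.94 in replicates 3 and 4 (limma adjusted p = 0.0112). The other tested Kif11 probe sets did not follow it, with log2 changes of 0.06 and -0.30 (limma adjusted p = 0.932 and 0.593). With the mean of all its tested probe sets the Kif11 change was -0.43 (limma adjusted p = 0.293).

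Kif13a, a kinesin-3 that carries mannose-6-phosphate receptor vesicles and positions recycling endosomes, read 135, 99.6, 116.2 and 113.4 in mutants, against 401.3, 291.8, 211.3 and 283.1 in wild type. The mutant values varied little, and the wild type values varied more but stayed above them. Its mean was 116 ± 14.6 in mutants and 297 ± 78.4 in wild type (SD, n = 4 each), a 2.51-fold fall (log2 change -1.33, SE 0.258, limma adjusted p = 0.0206). The log2 change was nearly equal in mutant replicates 1 and 2 (-1.32, limma adjusted p = 0.0349) and in replicates 3 and 4 (-1.33, limma adjusted p = 0.00368). This probe set has a name ending in _x_at, which marks probes that may match other transcripts. A further Kif13a probe set with no such mark fell 3.32-fold (log2 change -1.73, SE 0.418, limma adjusted p = 0.0372), with 15.5, 33.6, 58.7 and 54.6 in mutants and 110.8, 122.6, 138.4 and 108 in wild type. The remaining tested Kif13a probe sets had log2 changes of -0.33 and -0.81 (limma adjusted p = 0.556 and 0.196). With all _x_at and _s_at probe sets removed, Kif13a was represented by the one at -0.33 and was not called.

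Kifc2, a minus-end-directed motor with its motor domain at the C terminus, known from neurons, read 91.6, 50.4, 81.7 and 59.4 in mutants, against 246, 135.2, 134.1 and 159.4 in wild type. The groups did not overlap, but wild type replicate 1 stood high. The means were 70.8 ± 19.1 in mutants and 169 ± 52.9 in wild type (SD, n = 4 each), a 2.37-fold fall (log2 change -1.25, SE 0.308, limma adjusted p = 0.0405). In mutant replicates 1 and 2 alone the change was -1.26 but missed the threshold (limma adjusted p = 0.0613), and in replicates 3 and 4 alone it was -1.23 (limma adjusted p = 0.0106). Its other tested probe set had a log2 change of -0.17 (limma adjusted p = 0.881), and the mean of the Kifc2 probe sets did not pass (log2 change -0.71, limma adjusted p = 0.237).

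**Figure D2:**
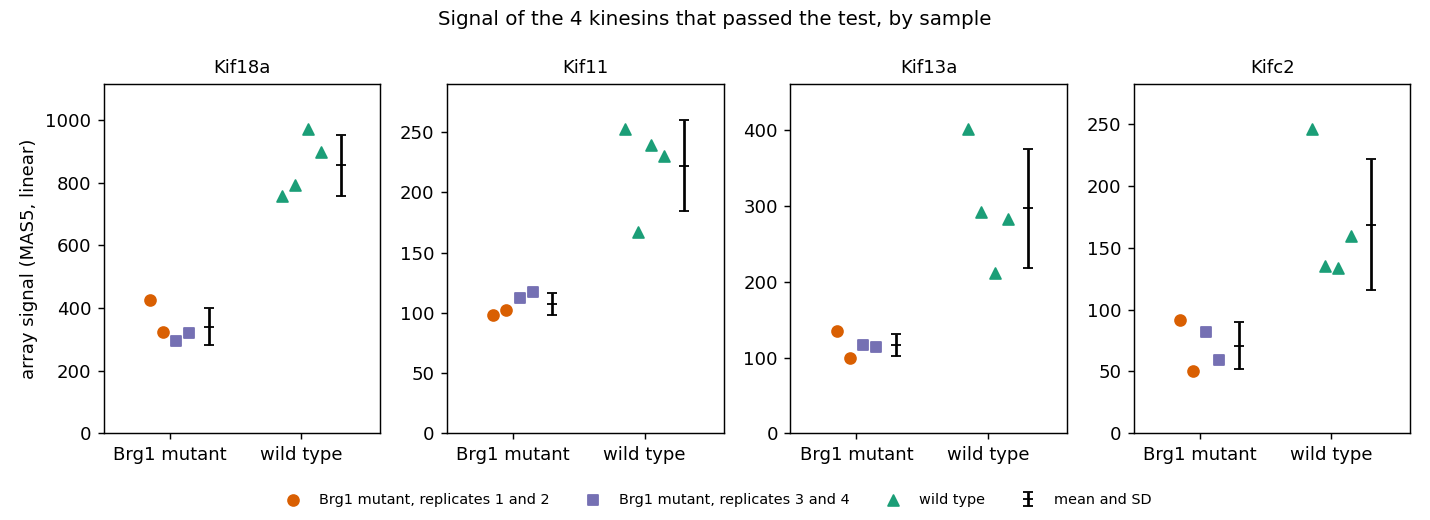
Array signal (vertical axis, linear, starting at 0) of Kif18a, Kif11, Kif13a and Kifc2 in every Brg1 mutant and wild type sample, with mean and SD of 4 samples beside the points. Mutant points of both pairs lie under all wild type points in each panel.

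These calls depended on single pools. Without wild type replicate 1 none of the 4 passed (limma adjusted p from 0.0548 for Kif18a to 0.128 for Kifc2, 6 of 30 kinesins at an unadjusted p under 0.05), nor without wild type replicate 4 (from 0.0577 for Kif18a to 0.107 for Kifc2, 9 of 30). Without wild type replicate 2 Kif18a and Kif11 passed (limma adjusted p = 0.0353 and 0.0467), and without wild type replicate 3 Kif13a alone did (0.0464). Without mutant replicate 3 or 4 Kif18a alone passed among them, while without mutant replicate 1 or 2 all 4 passed. The log2 change of these genes ranged from -1.45 to -1.27 for Kif18a, -1.17 to -0.97 for Kif11, -1.48 to -1.17 for Kif13a and -1.38 to -1.05 for Kifc2 over these 8 fits.

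Other mitotic kinesins had negative changes that did not pass the test. Kif18b, a kinesin-8 that limits astral microtubule length, read 666.4, 396.4, 399 and 359.3 in mutants, against 813.7, 1196.7, 706.8 and 866.5 in wild type. Every mutant pool was under every wild type pool, with mutant replicate 1 nearest to them. Kif18b just missed the threshold (log2 change -0.99, SE 0.271, limma adjusted p = 0.0538) and passed without mutant replicate 1 (log2 change -1.19, limma adjusted p = 0.0193). It also passed when arrays were centred on their median or 75th percentile (limma adjusted p = 0.0198 and 0.0389) and with the stricter filter (0.0422).

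Kif4, a chromokinesin that works with Prc1 at the spindle midzone, read 366, 398.2, 240.4 and 207.7 in mutants, against 784.6, 436.3, 451.6 and 467.1 in wild type. The groups did not overlap, and mutant replicates 3 and 4 were the lowest. Its log2 change was -0.83 (SE 0.299, limma adjusted p = 0.118), with -0.44 in mutant replicates 1 and 2 (limma adjusted p = 0.374) and -1.21 in replicates 3 and 4 (limma adjusted p = 0.00604). The microtubule depolymerase Kif2c, or MCAK, of centromeres read 1665.6, 919.9, 762.3 and 853.9 in mutants, against 1690.5, 2053.4, 1496.9 and 1443.6 in wild type, so that mutant replicate 1 lay within the wild type range and the other 3 under it. Its log2 change was -0.73 (limma adjusted p = 0.139). Without mutant replicate 1 it passed (log2 change -0.97, limma adjusted p = 0.0277). The name of this Kif2c probe set ends in _x_at, as for Kif13a. Over the 4 tested Kif2c probe sets the log2 change ran from -1.08 to 0.27, and none passed.

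Kifc1, a minus-end-directed motor that focuses spindle poles, read 111.9, 73.2, 52.7 and 41.8 in mutants, against 109.8, 120.6, 113.7 and 85.6 in wild type (log2 change -0.71, limma adjusted p = 0.219). Here too mutant replicate 1 was within the wild type range. Kif22, the chromokinesin that pushes chromosome arms away from the poles, read 5182.9, 2871.7, 2490.3 and 2260.9 in mutants, against 3991.2, 5223.7, 4185.6 and 3696.3 in wild type (log2 change -0.49, limma adjusted p = 0.333). The name of this Kif22 probe set also ends in _x_at. Neither of the other tested Kif22 probe sets passed, at -0.89 and -0.52 (limma adjusted p = 0.100 and 0.458). Kif23, the motor of the centralspindlin complex that cytokinesis needs, read 1278.4, 905.9, 970.7 and 1047 in mutants, against 1398.6, 1270.2, 1296.7 and 1513.2 in wild type (log2 change -0.39, SE 0.210, limma adjusted p = 0.274). Its other tested probe set, much dimmer, read 35.1, 15.8, 35.7 and 41 in mutants, against 50, 47.6, 103.3 and 87.1 in wild type. There the groups did not overlap, and the change did not pass (log2 change -1.18, limma adjusted p = 0.112).

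Kif20a, Kif20b and Kif2a showed small changes on their brightest probe sets. Kif20a, which moves the chromosomal passenger complex to the midzone, varied by 44.0% in mutants and 5.44% in wild type (coefficient of variation), with a log2 change of -0.09 (SE 0.290, limma adjusted p = 0.883). Kif20b, which acts in cytokinesis, had a log2 change of -0.05 (SE 0.261, limma adjusted p = 0.929). Its other tested probe set was at -0.88 over all samples (limma adjusted p = 0.0928) and fell in mutant replicates 3 and 4 alone (log2 change -1.05, limma adjusted p = 0.00295). Kif2a, a depolymerase of spindle poles and axons, read 1603.7, 1942, 992.9 and 946 in mutants, against 1209.1, 986.4, 1613.9 and 1338.7 in wild type. Mutant replicates 1 and 2 were high and replicates 3 and 4 low, and the log2 change over all samples was 0.05 (SE 0.292, limma adjusted p = 0.945). The 3 other tested Kif2a probe sets had negative changes, of -0.75, -0.25 and -0.88 (limma adjusted p = 0.144, 0.675 and 0.125).

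Kif14, which recruits citron kinase for cytokinesis, was too dim to be tested. It read 13.1, 2.9, 6.5 and 4.3 in mutants, against 23.8, 46.5, 37.2 and 46.3 in wild type. All mutant arrays were under the background bound (the 95th percentile of 27 Bacillus control probe sets on the same array) and 3 of 4 wild type arrays were above it. With the mutant signals raised to the bound and the wild type signals as read, Kif14 was 1.67-fold lower in the mutants. This figure compares mean log2 signals with no allowance for their spread. It is not a strict limit, as wild type replicate 1 (23.8) was under its own bound of 25.28. Kif14 passed in the fit with no filter (limma adjusted p = 0.0406). It is named for that call, after its values were seen. Kif15, which backs up Kif11 in holding spindle poles apart, Kif2b and Kifc5b were also untested, with at most 31.4, 21.5 and 44.9 on any array.

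Of the transport kinesins, those of the kinesin-1 family had positive changes on their brightest probe sets without passing. Kif5b, the ubiquitous heavy chain of conventional kinesin, read 646.4, 452.7, 766.1 and 725 in mutants, against 409.5, 424.5, 496.2 and 461.7 in wild type. Mutant replicate 2 lay within the wild type range and the other 3 above it (log2 change 0.51, SE 0.234, limma adjusted p = 0.204). Among its 4 other tested probe sets, 2 had log2 changes of 0.98 and 1.08 (limma adjusted p = 0.0534 and 0.0908) and 2 of -0.05 and -0.24 (limma adjusted p = 0.921 and 0.589).

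Kif5c, a further kinesin-1 heavy chain best known from neurons, read 2032.7, 2343, 1028.5 and 849.5 in mutants, against 963.7, 1131.6, 1168.6 and 1111.3 in wild type. Mutant replicates 1 and 2 lay above all wild type pools, and replicates 3 and 4 did not. Over all samples the log2 change was 0.39 (SE 0.334, limma adjusted p = 0.511). Kif5c rose in mutant replicates 1 and 2 alone (2.0005-fold, SE 0.205 on the log2 scale, limma adjusted p = 0.0244), and replicates 3 and 4 alone gave a log2 change of -0.22 (SE 0.174, limma adjusted p = 0.330). Its other tested probe set read 572.2, 709.8, 263.7 and 266.6 in mutants, against 217.3, 177.9, 163.7 and 149 in wild type. There all 4 mutant pools were above all wild type pools, and the log2 change was 1.23 (SE 0.352, limma adjusted p = 0.0615). The summed oocyte and early embryo markers and the spike-in controls were also high in mutant replicates 1 and 2, as given above, and their part in this result was not tested.

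Kif17, a homodimeric kinesin-2 that carries receptors in dendrites and enters cilia, differed between the mutant pairs. It read 1794.4, 2974.8, 647.7 and 531.9 in mutants, against 1309.2, 1114.4, 1660.5 and 1557.4 in wild type. Mutant replicates 1 and 2 lay above the wild type range and replicates 3 and 4 below it, so the change over all samples was -0.26 with an SE of 0.494 (limma adjusted p = 0.791). The change was 0.73 in mutant replicates 1 and 2 (SE 0.267, limma adjusted p = 0.125) and -1.25 in replicates 3 and 4 (SE 0.207, limma adjusted p = 0.00144). A second Kif17 probe set showed the same order, with 1384, 1769.1, 719.1 and 678.8 in mutants and 1195, 1260.1, 1129.6 and 1374.7 in wild type.

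Kif1c, a kinesin-3 of Golgi and endosomal traffic, read 75.7, 69.7, 211.8 and 167.6 in mutants, against 52.2, 62.8, 60.4 and 48.6 in wild type. All mutant pools were above all wild type pools, mutant replicates 3 and 4 by far the most. The log2 change was 1.07 (SE 0.388, limma adjusted p = 0.120), with 0.38 in mutant replicates 1 and 2 (limma adjusted p = 0.463) and 1.76 in replicates 3 and 4 (limma adjusted p = 0.000646). Mutant replicates 3 and 4 are those with the granulosa marker signal, among other differences given above, and the part of these in the Kif1c result was not tested. Other tested Kif1c probe sets had log2 changes of -0.02 and 0.67 (limma adjusted p = 0.983 and 0.592).

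**Figure D3:**
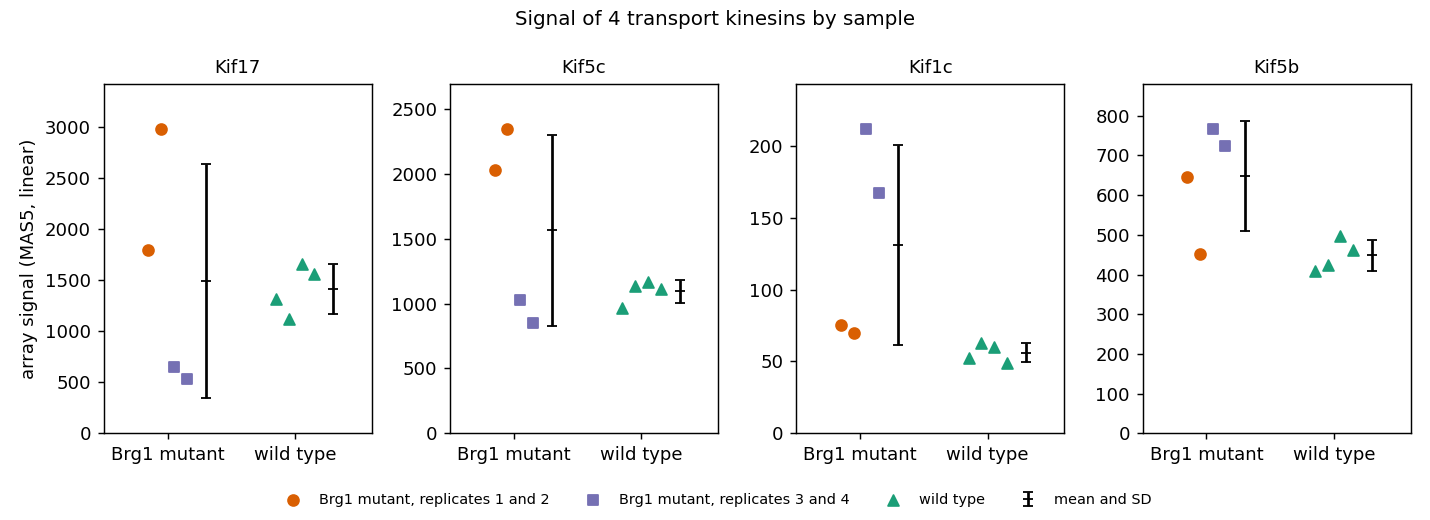
Array signal (vertical axis, linear, starting at 0) of Kif17, Kif5c, Kif1c and Kif5b in every sample, with mean and SD of 4 samples. Mutant replicates 1 and 2 (circles) are the highest points for Kif17 and Kif5c, and replicates 3 and 4 (squares) are the highest for Kif1c and Kif5b.

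The subunits of heterotrimeric kinesin-2, the motor of intraflagellar transport, did not change together on their brightest probe sets. Over all tested probe sets the log2 change ran from -0.19 to 0.73 for Kif3a (3 probe sets) and from -0.71 to -0.05 for Kif3b (4 probe sets). None of these passed. Kif3a read 74.9, 86.4, 224 and 188.2 in mutants, against 173.9, 153, 143.2 and 122.5 in wild type. Mutant replicates 1 and 2 were below all wild type pools and replicates 3 and 4 above them (log2 change -0.19 over all samples, limma adjusted p = 0.793). Kif3b, its partner motor, read 187.6, 168.8, 112 and 74.2 in mutants, against 156.2, 133.5, 122.7 and 140.2 in wild type, in the opposite arrangement (log2 change -0.11, limma adjusted p = 0.865). Kifap3, the accessory subunit, read 45.2, 36.3, 270.7 and 233.8 in mutants, against 44.7, 44.4, 33.9 and 43 in wild type. Its change was -0.03 in mutant replicates 1 and 2 and 2.61 in replicates 3 and 4 (limma adjusted p = 0.975 and 9.3e-05), on the arrays that carry the granulosa signal. The part of that signal in the Kifap3 change was not tested.

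The other 5 tested transport kinesins, Kif1b, Kif3c, Kif13b, Kif16b and Kifc3, had log2 changes between -0.35 and 0.31, none past the threshold (limma adjusted p from 0.487 to 0.912). Kif1a and Kif5a, neuronal motors, were untested, with at most 43.7 and 47.9 on any array. In the remaining class Kif9, a kinesin of motile cilia, read 68.5, 65.3, 30.1 and 42.6 in mutants, against 98.2, 78.5, 97.1 and 64.7 in wild type (log2 change -0.77, limma adjusted p = 0.189). Kif24, a centriolar depolymerase that restrains cilium formation, read 151.8, 152.1, 113.7 and 58.9 in mutants, against 157.9, 156.2, 212.6 and 187.8 in wild type. Its groups did not overlap, with mutant replicates 1 and 2 close under the wild type range (log2 change -0.67, limma adjusted p = 0.237). Kif6, Kif21a, Kif21b and Kif26b had log2 changes between -0.30 and 0.02 and did not pass. Kif7, the Hedgehog pathway kinesin, and Kif12, Kif26a, Kif27 and Kif28 were untested.

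Set against wild type apart, mutant replicates 1 and 2 gave 3 kinesins that fell (Kif18a, Kif11 and Kif13a) and 1 that rose (Kif5c), of 30, where 3.58% of all genes fell and 3.86% rose. Mutant replicates 3 and 4 gave 12 that fell and 2 that rose (Kif5b and Kif1c), where 24.4% of all genes fell and 19.2% rose. Besides the 4 genes above, those that fell were Kif18b, Kif4, Kif2c, Kifc1, Kif22, Kif17, Kif9 and Kif24. By class, 7 of 11 mitotic, 3 of 13 transport and 2 of 6 other kinesins fell in replicates 3 and 4. The median change of mitotic kinesins was -0.34 in replicates 1 and 2 and -0.94 in replicates 3 and 4, beside 0.04 and -0.19 over all tested genes, and that of transport kinesins was 0.16 and -0.08. Both pairs were set against the same 4 wild type samples, and the difference between the pairs was not tested.

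**Figure D4:**
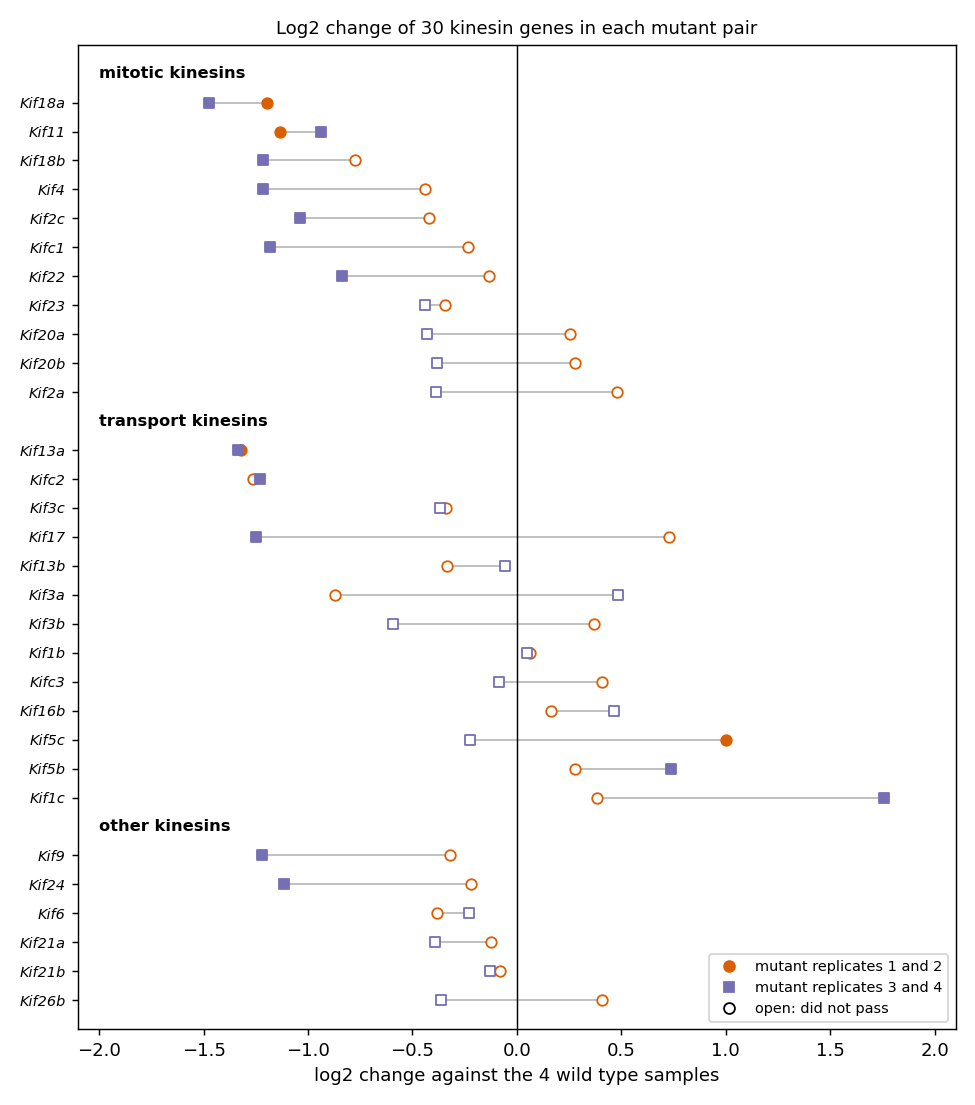
Log2 change against the 4 wild type samples (horizontal axis) for mutant replicates 1 and 2 (circles) and replicates 3 and 4 (squares), 1 line per kinesin gene, filled where the adjusted p is under 0.05. Kif18a, Kif11, Kif13a and Kifc2 lie left of 0 in both pairs, while Kif17, Kif5c, Kif3a, Kif3b and several mitotic kinesins lie on either side of 0.

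Probe sets of a gene often differed. Of 19 kinesins with several tested probe sets, 10 had changes of 1 sign and 9 of both signs. The widest spread was that of Kif1b, a kinesin-3 that carries mitochondria and synaptic vesicle precursors, from -1.74 to 0.44 over 7 probe sets. A single Kif1b probe set fell, with 50.2, 30.5, 50.5 and 42.5 in mutants, against 164, 116.6, 142.2 and 151.5 in wild type. The groups did not overlap (a 3.35-fold fall, limma adjusted p = 0.0125, log2 change -1.74 with SE 0.279). This fall held in mutant replicates 1 and 2 (log2 change -1.86, limma adjusted p = 0.0130) and in replicates 3 and 4 (log2 change -1.62, limma adjusted p = 0.000891). The brightest Kif1b probe set had a log2 change of 0.06 (limma adjusted p = 0.912). The transcript form behind each probe set is not named in the annotation used. Over all 70 tested kinesin probe sets, 6 fell and 0 rose, where 3.58% of all tested probe sets fell and 2.98% rose.

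**Figure D5:**
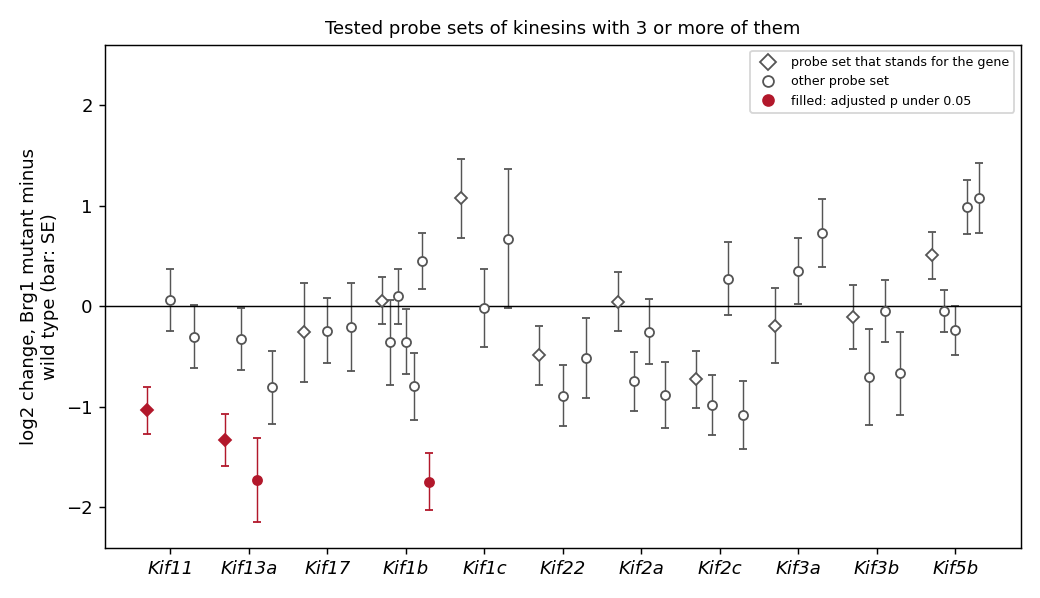
Log2 change (Brg1 mutant minus wild type, vertical axis) with SE for each tested probe set of the kinesins that have 3 or more, diamonds marking the one that stands for the gene and red an adjusted p under 0.05. Kif1b spans -1.74 to 0.44, and Kif11 has 1 called and 2 uncalled probe sets.

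Of 20 tested partners of mitotic kinesins at the spindle, 5 fell in the mutants, 0 rose and 15 did not pass, where 4.03% of all genes fell and 3.01% rose. All 20 had a negative change, with a median log2 change of -0.65 against -0.05 over all genes. Among them is Cenpe, itself a mitotic kinesin motor, which the symbol rule leaves out of the kinesin genes. Its log2 change was -0.20 (limma adjusted p = 0.719). Prc1, which bundles midzone microtubules and recruits Kif4, read 1355.5, 888.1, 541.2 and 597.7 in mutants, against 2202.5, 2196.8, 2615.3 and 2364.7 in wild type (2.96-fold lower, limma adjusted p = 0.0202). Racgap1, the partner of Kif23 in centralspindlin, averaged 378 ± 76.1 in mutants and 1010 ± 89.4 in wild type (SD, n = 4 each, 2.71-fold lower, limma adjusted p = 0.0119).

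Incenp, the scaffold of the chromosomal passenger complex that Kif20a carries, fell by 1.38 on the log2 scale (limma adjusted p = 0.0205). Tpx2, a spindle assembly factor that binds Kif11, fell 2.03-fold (limma adjusted p = 0.0466), and Aurka, the kinase it activates, fell 2.00-fold (limma adjusted p = 0.0307). In mutant replicates 1 and 2 alone Prc1, Racgap1 and Incenp passed, and Tpx2 and Aurka did not (limma adjusted p = 0.116 and 0.0617). The median of this list was -0.36 in replicates 1 and 2 and -0.93 in replicates 3 and 4.

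Of 17 tested light chains, adaptors and accessory proteins, 0 rose and 0 fell, with a median log2 change of 0.11. Of 19 tested dynein and dynactin genes, the machinery of transport towards the minus end, 1 fell and 0 rose, with a median of 0.10, and a share of 1 in 19 is near the 4.03% of all genes that fell. It was Ndel1, a dynein regulator, which read 745.7, 1091.5, 597.5 and 706.6 in mutants, against 2073.2, 1454.5, 2051.8 and 2303.4 in wild type (a 2.54-fold fall, limma adjusted p = 0.0205, log2 change -1.34 with SE 0.258). In mutant replicates 3 and 4 alone, 6 genes of each of these lists rose and 2 fell, where 19.2% of all genes rose and 24.4% fell, on the arrays with granulosa signal. The part of that signal in these counts was not tested.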

How the data were processed

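The deposited values are array intensities, 1 MAS5 signal per probe set, per the submitters' processing notes. The sources used here give neither the MAS5 version nor its scaling target. Each array had a 2% trimmed mean of 150.0, so nothing was rescaled, and medians ran from 36.3 to 47.6. Of 45101 probe sets, 64 controls were set aside. Signals under 1 were set to 1, log2 was taken, and the upper 50% by mean log2 signal (22519) were tested with limma 3.58.1 in R 4.3.3 (lmFit, eBayes with intensity trend, two-sided, Benjamini-Hochberg over all tested probe sets, threshold 0.05). The filter was kept when samples were left out. The fit was also run on simulated data, with independent noise of the wild type spread in both groups. Such data hold no split between mutant pairs, so they do not show how the fit behaves on these arrays. Single array measures used exact permutation tests over 70 assignments.

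Symbols came from the platform annotation, and all 41 matched the RefSeq table of GRCm38.p6. Genes named are kinesins that passed over all samples or in a mutant pair, the 8 brightest in wild type, the 5 largest changes that did not pass, Smarca4, partners that passed and the 2 brightest of each marker list, with further members by range. Members, lists, classes, motifs and the mutant pairs were chosen with earlier results of these data known.

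Alternatives were quantile, median and 75th percentile scaling, the filter dropped or tightened to the upper 30%, 16 added before log2, no trend, array weights, a replicate block, removal of _x_at and _s_at probe sets, averaging each gene's probe sets, and samples left out.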

Additional observations from a re-analysis of the deposited data

Results flagged for a closer look

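In 2 of the 34 groups of 4 samples behind the named kinesins, 1 sample lay far from the other 3 on the log2 scale. Chance flags about 1 in 20 such groups. Kif18b read 666.4 in mutant replicate 1, and 359.3 to 399 in the other mutant samples. Kif4 read 784.6 in wild type replicate 1, and 436.3 to 467.1 in the other wild type samples.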

How the results depend on the processing

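The count of kinesins called was 4, and stayed between 3 and 5 under quantile, median and 75th percentile scaling, both filters, the pseudocount, no trend, removal of _x_at and _s_at probe sets, and in mutant replicates 1 and 2 alone. It was 15 with array weights, 2 with the mean of probe sets, 14 in mutant replicates 3 and 4 alone, and 0 to 6 with single samples left out. The count of probe sets called was 1478 of 22519 tested, and it was 11487 with array weights, 9359 in mutant replicates 3 and 4 alone, and 73 to 2925 with single samples left out. With the replicate block 0 kinesins (limma, 8 at an unadjusted p under 0.05) and 15 probe sets were called. Same-numbered samples did not deviate together (r from -0.18 to 0.02). Deviations of the mutant samples also hold the split between the mutant pairs, so this check cannot exclude pairing by number. The labels state no pairing, and the block was not used in the main fit. Centring on the median gave 421 probe sets higher and 1558 lower, against 671 and 807, and moved the median change of all from -0.05 to -0.22. With the filter dropped Kif14 passed and Kifc2 did not (limma adjusted p = 0.0583).

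The 17 named kinesins were followed through every setting that kept a probe set of the gene, which some did not for Kif1c, Kif9 and Kifc1. Among them, sign changes arose for Kif17, Kif2a and Kif5c, none of them called over all samples. In the mutant pairs, 6 further tested kinesins changed sign against all samples, none of them called (Kif3a, Kif3b, Kif20a, Kif20b, Kif26b and Kifc3). Kif17 was 0.73 in mutant replicates 1 and 2 and ran from -0.71 to 0.12 with samples left out. Kif2a was -0.13 and -0.10 with median and 75th percentile centring, -0.41 with array weights, -0.46 as the mean of its probe sets, -0.39 in mutant replicates 3 and 4, and -0.14 to 0.20 with samples left out. Kif5c was -0.12 with array weights and -0.22 in mutant replicates 3 and 4. The causes were not tested. Dim probe sets limit what can be said: 11 of 41 kinesins were not tested.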
